A study of Homo sapiens with 24 samples.

Results

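PURPL, a long intergenic noncoding RNA that p53 induces, was set beside 9 other long noncoding RNAs (lncRNAs) that have been linked to p53: PINCR, NEAT1, TP53TG1, PVT1, MALAT1, LINC-PINT, TUG1, MEG3 and PANDAR. The 10 genes were taken by symbol from the table of estimated counts per gene, and each of them had 1 entry among 58825 genes. Of these 10, 8 passed the filter on low counts, and MEG3 and PANDAR did not. Among the 8, PURPL had the second largest mean relative response to p53 activation after PINCR. In control lines its level per merged exon length moved from rank 4 to rank 3 of the 10. This order depends on the length used and covers polyadenylated RNA only.

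The samples were 24 libraries of polyadenylated RNA from SK-HEP-1, a human line established from a liver tumour and labelled as endothelial cells, of which 6 derived lines were used. Every line carried CRISPR interference (CRISPRi), in which a guide RNA brings a transcription-blocking inactive Cas9 to a promoter. The lines NTC1 and NTC2 carried non-targeting guides (NTC lines), and the lines sg2, sg4, sg5 and sg6 carried 1 of 4 guides against PURPL (PURPL-guide lines). Each line was treated for 6 h with 10 µM Nutlin-3a, which stabilises p53 by blocking its binding to MDM2, or with DMSO as vehicle, and each of the 12 groups held 2 harvests numbered 1 and 3. The labels call the harvests biological replicates without saying how they were separated, so p-values within lines measure the spread between these harvests.

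The libraries held 66379371 to 92116716 estimated counts. In the library of sg2 with Nutlin-3a from harvest 1, the median correlation across genes with the other libraries of its treatment was 0.902, against 0.983 to 0.991 for the others. Most estimates for the lncRNAs that rest on it are given with and without it, and those on other genes in guide lines only with it. The response model took its spread from all 24 libraries, so SEs and p-values of NTC lines also draw on it and are given with it. Without it the log2 response of PURPL in NTC lines was 1.94 (SE 0.11, edgeR adjusted p = 1.95e-09). The endothelial markers PECAM1, KDR and ERG had a median of 0 CPM (counts scaled to a common library total), and CDH5 reached at most 0.0591 CPM, so these 4 of 8 listed markers were at or near 0 in cells labelled as endothelial. VWF, TEK and TIE1 reached 0.274, 0.227 and 0.206 CPM, and ROBO4 ran from 1.6 to 13.8 CPM. The sum of the 8 markers was 1.74 to 3.32 CPM in NTC lines with DMSO and 2.82 to 3.06 with Nutlin-3a, and 1.98 to 3.09 and 2.12 to 14.5 CPM in PURPL-guide lines. The share of counts from mitochondrial genes, a sign of RNA quality, moved with the treatment, from 0.81% to 0.927% in NTC lines with DMSO to 1.1% to 1.47% with Nutlin-3a. In PURPL-guide lines it was 0.855% to 1.08% and 1.1% to 1.33%. The part of this shift in the responses below was not tested.

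p53 is a transcription factor that binds DNA as a tetramer and is kept low by the ubiquitin ligase MDM2. When that brake is released, p53 activates genes of cell cycle arrest, repair and death, and also lncRNAs that either feed back on p53 or act on its targets. PURPL is known to hold p53 low in unstressed cells through the p53-binding protein MYBBP1A, and PINCR is known as a p53 target that acts at other p53 targets. NEAT1 builds paraspeckles, nuclear bodies that hold RNA-binding proteins, while MALAT1 sits in nuclear speckles.

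A p53 response element joins a pair of 10-base p53 consensus decamers, which read as the same pattern on both strands. RefSeq promoter windows (GRCh38.p14, 250 bases before to 50 after the start of transcription) were found for 6 of the 10 lncRNAs, in 12 windows. PURPL, TP53TG1 and TUG1 are shown because they stand for 3 outcomes described further on: a strong response, a smaller one, and none that passed the test. Capitals mark the p53 decamers, and a window without capitals holds none.
PURPL (chr5:27472042-27472341, plus strand): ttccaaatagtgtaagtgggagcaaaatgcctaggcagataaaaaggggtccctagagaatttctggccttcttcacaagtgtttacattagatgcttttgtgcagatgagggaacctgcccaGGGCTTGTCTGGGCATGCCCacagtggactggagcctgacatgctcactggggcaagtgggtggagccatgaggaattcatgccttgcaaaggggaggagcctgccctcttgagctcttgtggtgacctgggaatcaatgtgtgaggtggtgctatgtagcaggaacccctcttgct
TP53TG1 (chr7:87345443-87345742, minus strand): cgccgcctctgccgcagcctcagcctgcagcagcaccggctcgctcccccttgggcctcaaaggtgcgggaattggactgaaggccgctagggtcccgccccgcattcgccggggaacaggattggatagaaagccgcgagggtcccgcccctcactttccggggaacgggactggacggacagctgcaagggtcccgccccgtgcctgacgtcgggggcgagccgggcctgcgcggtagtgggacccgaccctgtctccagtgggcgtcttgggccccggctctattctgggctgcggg
TUG1 (chr22:30969015-30969314, plus strand): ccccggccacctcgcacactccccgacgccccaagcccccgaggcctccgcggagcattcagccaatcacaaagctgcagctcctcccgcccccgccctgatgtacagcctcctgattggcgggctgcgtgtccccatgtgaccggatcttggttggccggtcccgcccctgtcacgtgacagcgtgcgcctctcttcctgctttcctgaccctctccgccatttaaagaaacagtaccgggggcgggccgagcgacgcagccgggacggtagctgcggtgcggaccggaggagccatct
The PURPL window held 2 decamers with no base between them, GGGCTTGTCTGGGCATGCCC at chr5:27472165-27472184, from 127 to 108 bases before the start. Such an adjacent pair was found in 6 of 35116 RefSeq promoter windows of this length (0.0171%), and a pair with 0 to 13 bases between its decamers in 10 of them (0.0285%). At least 1 decamer was found in 6.63% of the windows. The 11 other windows of these lncRNAs, which belong to TP53TG1, LINC-PINT, MALAT1, MEG3 and TUG1, held no decamer. No window was found for PANDAR, or for PINCR, NEAT1 and PVT1, which rose with Nutlin-3a as given further on, so these were not searched. The PURPL window had 0 CG dinucleotides at a GC content of 52%, while TP53TG1 had 29 at 70.7% and TUG1 had 28 at 67.7%, beside medians of 14 and 58.7% over all windows. A match in such a window is a description, not a binding site.

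The 10 windows with such a pair belonged to 10 genes, and 6 of these were tested for their response to Nutlin-3a. In NTC lines 5 of the 6 rose and 0 fell, where 4.18% of 16371 genes rose (edgeR), and the same counts held in PURPL-guide lines, where 17.7% of genes rose. Besides PURPL these were PTCHD4, a Patched-domain protein (1.72, SE 0.15), the lncRNA LNCTAM34A (1.70, SE 0.33), MCC (1.24, SE 0.13) and DDB2, a DNA damage sensor (0.88, SE 0.17), as log2 fold changes in NTC lines. DYNC2H1, a motor protein of cilia, had 0.29 (SE 0.27, edgeR adjusted p = 0.667). These genes were chosen by the letters of their windows, after the responses had been computed. The 5 include PURPL, whose response was already known, and whether the pairs set these responses was not tested.

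The targeted gene was first checked in each library. In NTC lines with DMSO, PURPL was at 7.47 CPM in NTC1 and 8.44 in NTC2 at harvest 1, and at 7.4 and 10.1 at harvest 3. In the 8 PURPL-guide libraries with DMSO it ran from 0.273 CPM, with a median of 0.53, to 0.868. All PURPL-guide libraries lay below all NTC libraries, as ranges did for 0.116% of 16371 genes. As a share of the NTC mean, sg2 kept 3.59%, sg4 6.23%, sg6 6.92% and sg5 9.9% of the PURPL level. The log2 difference was -3.92 (SE 0.29, 4 against 2 lines), and PURPL was the 1 gene called among 16649 (0.00601%; edgeR adjusted p = 0.0127). Without the NTC1 library of harvest 1 the same test gave -3.91 with an adjusted p of 0.0667, in a range of 3.18e-37 to 0.167 over 23 alternatives. The adjusted p was 0.167 without line NTC1, 0.119 without sg4 and 0.163 without sg6. In bulk RNA, fewer cells with a transcript and less of it per cell cannot be told apart.

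With Nutlin-3a the order of the guides at both ends was kept. sg2 was lowest at 3.31% of the NTC mean (4.34% without the library that stood apart) and sg5 highest at 7.63%, with sg6 at 4.95% and sg4 at 6.58%. The 8 PURPL-guide libraries ran from 0.743 CPM, with a median of 1.76, to 2.9, while the NTC libraries held 29.7, 32.1, 38.5 and 30.4. Again all guide libraries lay below all NTC libraries, as for 0.44% of genes, or 0.489% without the sg2 library that stood apart. The highest PURPL-guide library with Nutlin-3a was below the lowest NTC library with DMSO. The difference between lines was -4.16 on the log2 scale (SE 0.34) and was not called (edgeR adjusted p = 0.432). Without the sg2 library that stood apart it was -4.06 (SE 0.17, adjusted p = 4.89e-05) and PURPL was the 1 gene called (0.00596% of genes), and the adjusted p ranged from 2.8e-24 to 0.933 over 23 alternatives. Leaving out line sg2 gave -3.97 with an adjusted p of 8.62e-06.

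**Figure D1:**
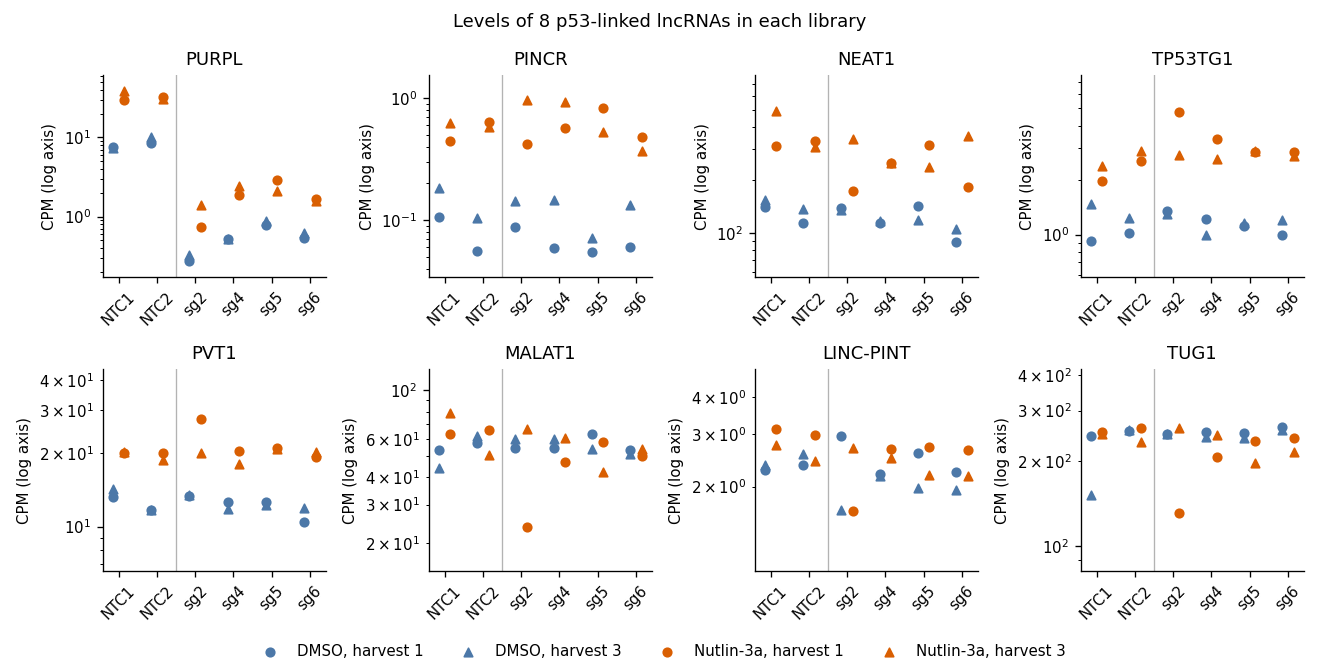
CPM on a log axis in each of the 24 libraries for the 8 lncRNAs tested, by line, with colours for treatment and marker shapes for harvest. PURPL is below 3 CPM in every library of sg2, sg4, sg5 and sg6 and above 7 CPM in every NTC library, while the other 7 lncRNAs overlap between the guide classes.

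Nutlin-3a raised 5 of the 8 tested lncRNAs in NTC lines (PURPL, PINCR, NEAT1, TP53TG1 and PVT1), and lowered 0. The background was 4.18% of 16371 genes called up, and 6.75% of the 2016 lncRNA genes among them. The same 5 rose in PURPL-guide lines, where the background was 17.7%. Both counts were also 5 of 8 without the library that stood apart, where 8.88% and 15.9% of genes were called up. Genes called down made up 4.03% in NTC lines and 16.5% in guide lines. The median log2 change was 0.85 over the 8 lncRNAs, or 0.64 without PURPL, and -0.02 over all genes in NTC lines. None of the 8 was lower at an unadjusted p under 0.05 in either class, and DESeq2 called 0 of them lower.

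PURPL rose 3.91-fold in NTC lines, from 8.35 ± 1.25 to 32.7 ± 4.02 CPM (SD, n = 4). The treated and untreated NTC libraries did not overlap, as for 11.1% of all genes in that direction. The log2 fold change was 1.98 (SE 0.18, edgeR adjusted p = 3.15e-06), and this response was number 28 among 2016 lncRNA genes and number 125 among 16371 genes. In PURPL-guide lines the log2 fold change was 1.74 (SE 0.14, adjusted p = 2.25e-07; 1.82, SE 0.11, without the sg2 library that stood apart) from a level of 0.556 ± 0.204 CPM (SD, n = 8). There the treated and untreated libraries overlapped by 1 library, the sg2 library that stood apart at 0.743 CPM, and without it the lowest treated library was at 1.42 CPM. The rise in CPM was 24.3 in NTC lines and 1.28 in guide lines. The difference of the log2 responses between the classes was -0.27 (SE 0.23, edgeR adjusted p = 0.541).

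PURPL rose in each of the 6 lines. The background of genes called up was 1.64% in NTC1, 1.61% in NTC2, 20.2% in sg2, 1.72% in sg4 and 1.73% in both sg5 and sg6. The log2 fold change was 2.20 in NTC1, 1.75 in NTC2, 1.84 in sg2 (2.20 without the library that stood apart), 2.04 in sg4, 1.59 in sg5 and 1.48 in sg6, with SEs of 0.25 to 0.28 and edgeR adjusted p-values of 0.000112 to 0.00474. The response in sg6 was not called without its DMSO library of harvest 1 (1.36, adjusted p = 0.0951, with a single DMSO library left). Over the 12 pairs of line and harvest the response ran from 1.26 to 2.38, and 12 of 12 were positive. The responses of PINCR, NEAT1, PVT1 and TP53TG1 were also positive in 6 of 6 lines and 12 of 12 pairs.

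PINCR, which lies on chromosome X (43176994 to 43226598), had the largest mean relative response of the 8, and the lowest level per length in NTC lines. Its counts in NTC lines with DMSO were 8 and 5 at harvest 1 and 17 and 9 at harvest 3, for NTC1 and NTC2. With Nutlin-3a they were 32, 42, 46 and 46. The treated and untreated libraries did not overlap in CPM, as for 11.1% of all genes in that direction. The log2 fold change was 2.38 (SE 0.38, edgeR adjusted p = 0.000724). In PURPL-guide lines CPM ran from 0.0542, with a median of 0.0791, to 0.146 with DMSO, and from 0.37, with a median of 0.55, to 0.969 with Nutlin-3a. The log2 fold change there was 2.75 (SE 0.28, adjusted p = 3.13e-06), and 2.85 (SE 0.24) without the sg2 library that stood apart. With 4 to 71 counts per library PINCR was the least precisely measured of the 8, and its SE in NTC lines was the widest.

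NEAT1, on chromosome 11 (65422774 to 65445540), rose from an already high level. In NTC lines it was at 139, 114, 154 and 137 CPM with DMSO and at 312, 332, 495 and 309 CPM with Nutlin-3a, in the order NTC1 and NTC2 at harvest 1, then at harvest 3. One treated library, NTC1 at harvest 3, stood above the other treated libraries. No treated library reached down to the untreated ones, as for 11.1% of all genes in that direction. The log2 fold change was 1.41 (SE 0.22, edgeR adjusted p = 0.000774) in NTC lines and 1.15 (SE 0.16, adjusted p = 6.72e-05) in PURPL-guide lines, where it was 1.24 (SE 0.13) without the sg2 library that stood apart. In guide lines the level ran from 89 to 141 CPM with DMSO (median 117) and from 172 to 353 CPM with Nutlin-3a (median 249).

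TP53TG1, an lncRNA found as a p53 target and read from chromosome 7 (87325225 to 87345515, minus strand), rose in both classes. In NTC lines it was at 0.925, 1.02, 1.48 and 1.23 CPM with DMSO and at 1.98, 2.54, 2.38 and 2.89 CPM with Nutlin-3a, in the same order. The ranges did not overlap, as for 11.1% of all genes in that direction, and the log2 fold change was 1.06 (SE 0.19, edgeR adjusted p = 0.00214). PURPL-guide lines had 0.995 to 1.35 CPM with DMSO (median 1.17) and 2.62 to 4.8 CPM with Nutlin-3a (median 2.86), for a log2 fold change of 1.41 (SE 0.14, adjusted p = 2.05e-06). The value of 4.8 CPM was that of the sg2 library that stood apart, and without it the log2 fold change was 1.28 (SE 0.11).

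PVT1, the lncRNA beside MYC, had the smallest response among the 5 that rose and the narrowest spread. In NTC lines it was at 13.3, 11.7, 14.3 and 11.7 CPM with DMSO and at 20.1, 20.1, 20.1 and 18.7 CPM with Nutlin-3a. The ranges did not overlap, as for 11.1% of all genes in that direction, and the log2 fold change was 0.64 (SE 0.10, edgeR adjusted p = 0.000522). In PURPL-guide lines the CPM ran from 10.5 to 13.4 with DMSO and from 18.1 to 27.7 with Nutlin-3a, with a log2 fold change of 0.76 (SE 0.07, adjusted p = 9.81e-07), or 0.69 (SE 0.05) without the sg2 library that stood apart. Over the 6 lines the SD of the PVT1 response was 0.10 on the log2 scale, beside 0.27 for PURPL and 0.53 for PINCR.

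MALAT1, LINC-PINT and TUG1 did not pass the test in either class. For MALAT1, on chromosome 11 (65497688 to 65506516), the log2 fold change was 0.26 (SE 0.23, edgeR adjusted p = 0.64) in NTC lines and -0.17 (SE 0.16, adjusted p = 0.413) in guide lines. For LINC-PINT, a lncRNA of chromosome 7 that is known to interact with Polycomb repressive complex 2, the values were 0.24 (SE 0.19) and 0.11 (SE 0.14). For TUG1, on chromosome 22 (30969245 to 30979395), which is also known to bind Polycomb proteins, they were 0.14 (SE 0.17) and -0.22 (SE 0.12). Without the sg2 library that stood apart the values in guide lines were -0.044 (SE 0.084), 0.18 (SE 0.12) and -0.13 (SE 0.08). The treated and untreated libraries of each of these 3 overlapped in both classes. MALAT1 and TUG1 were called lower in guide lines when the sg2 Nutlin-3a library of harvest 3 was left out (-0.42 and -0.38, adjusted p = 0.000388 and 0.000485), which leaves the library that stood apart as the only one of its group. The adjusted p over 29 alternatives ranged from 0.000388 to 0.802 for MALAT1 and from 0.000485 to 0.322 for TUG1.

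MEG3, an imprinted lncRNA on chromosome 14 that is known to raise p53 protein, had 0 counts in all 24 libraries. PANDAR, the lncRNA upstream of CDKN1A on chromosome 6 (36673621 to 36675126), had 1 count in each of 3 libraries, of which 2 were treated with Nutlin-3a, and 0 in the other 21. A count of 0 allows up to 3 counts, which is 0.0326 to 0.0452 CPM in these libraries, so no fold change is given for either gene. Such limits cover counting error only.

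**Figure D2:**
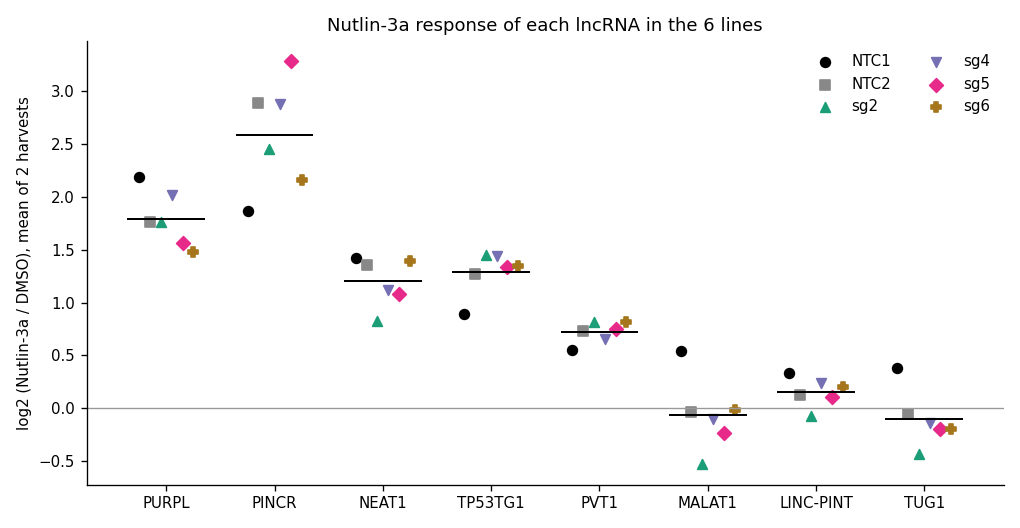
Log2 ratio of CPM with Nutlin-3a over DMSO, mean of 2 harvests, for each of 6 lines (points) and the mean of the lines (bars). PINCR (mean 2.59) and PURPL (mean 1.79) are the 2 highest, and MALAT1, LINC-PINT and TUG1 scatter around 0.

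PURPL was then compared with the other 7 lncRNAs within lines, as the difference of log2 responses. Its response was larger than that of NEAT1 by 0.60 ± 0.33 (SD, n = 6 lines), of TP53TG1 by 0.51 ± 0.42 and of PVT1 by 1.08 ± 0.36. It was larger than that of LINC-PINT by 1.64 ± 0.23, of MALAT1 by 1.86 ± 0.30 and of TUG1 by 1.90 ± 0.22. Each of these 6 differences was positive in 6 of 6 lines, with p = 0.0312 in an exact two-sided sign-flip permutation test, the smallest p that 6 lines allow, and 0.0365 adjusted over 7 comparisons. Without the sg2 library that stood apart the 6 differences ran from 0.59 for NEAT1 to 1.90 for TUG1, at the same p. The gap to NEAT1 was as small as 0.08 in sg6, and the gap to TP53TG1 as small as 0.13 in sg6. The adjusted exact p for TP53TG1 was 0.188 without the sg2 Nutlin-3a library of harvest 3 and 0.0625 without the sg5 Nutlin-3a library of harvest 1. For NEAT1 it was 0.0938 without the sg6 Nutlin-3a library of harvest 1.

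PINCR responded more than PURPL in 5 of 6 lines. The difference, PURPL minus PINCR, was -0.79 ± 0.67 (SD, n = 6 lines), and the exact sign-flip permutation test gave p = 0.0625. The exception was NTC1, where PURPL responded more by 0.32. Without the NTC1 DMSO library of harvest 3, which held the highest untreated PINCR count, the difference was -0.86 with an adjusted exact permutation p of 0.0312.

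Levels of different genes were compared per length, as TPM, in which CPM per length is scaled to a fixed total from merged exon lengths. In NTC lines with DMSO, TUG1 was at 99 ± 22.7 TPM (SD, n = 4), MALAT1 at 27.1 ± 3.82 and NEAT1 at 26.5 ± 3.14. PURPL was at 14.0 ± 2.02 TPM, at rank 4, followed by PVT1 at 10.3 ± 1.04, TP53TG1 at 5.03 ± 0.988, LINC-PINT at 1.17 ± 0.0512 and PINCR at 0.222 ± 0.103. The ranges of MALAT1 and NEAT1 overlapped, and those of every other pair of neighbours among these 8 did not.

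With Nutlin-3a, PURPL passed MALAT1 by merged exon length in polyadenylated RNA. TUG1 stood at 108 ± 6.13 TPM, NEAT1 at 70.1 ± 16.2 and PURPL at 54.6 ± 5.9 TPM, with overlapping ranges for NEAT1 and PURPL. MALAT1 followed at 32.3 ± 5.44 TPM, PVT1 at 15.9 ± 0.691, TP53TG1 at 10.6 ± 1.52, LINC-PINT at 1.38 ± 0.164 and PINCR at 1.13 ± 0.16, the last pair with overlapping ranges. Among 2016 tested lncRNA genes PURPL moved from number 115 to number 23 by mean TPM. With merged exon lengths the rise in TPM was 40.6 for PURPL and 43.6 for NEAT1, beside 5.62 for PVT1, 5.52 for TP53TG1 and 0.903 for PINCR, which had the larger relative response. The merged length was 22767 bases for NEAT1 and 2638 for PURPL, beside median transcripts of 3147 and 806.5 bases. The size of these rises therefore depends on the length used.

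The rank depends on the length used and on the selection of polyadenylated RNA. Transcripts without a poly(A) tail are largely missing from these levels, so total amounts of PURPL, MALAT1 and NEAT1 were not compared. With the longest transcript in place of merged exons PURPL was at rank 5 with DMSO and rank 2 with Nutlin-3a, and with the median transcript length at ranks 5 and 4. With Nutlin-3a the longest transcripts put PURPL at 63.4 TPM, above NEAT1 at 49.7 and MALAT1 at 23.2 TPM. The median lengths put it at 39.1 TPM, below NEAT1 at 111 and MALAT1 at 130 TPM. In PURPL-guide lines it was at 0.933 ± 0.343 TPM (SD, n = 8), rank 7, with DMSO and at 3.06 ± 1.17 TPM, rank 6, with Nutlin-3a. There its range overlapped that of LINC-PINT with DMSO, and those of PINCR and LINC-PINT with Nutlin-3a. The overlaps with Nutlin-3a rest on the sg2 library that stood apart, at 1.09 TPM: without it PURPL was at 3.34 ± 0.92 TPM (SD, n = 7) with a lowest value of 2.36, above the highest PINCR value of 1.91.

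**Figure D3:**
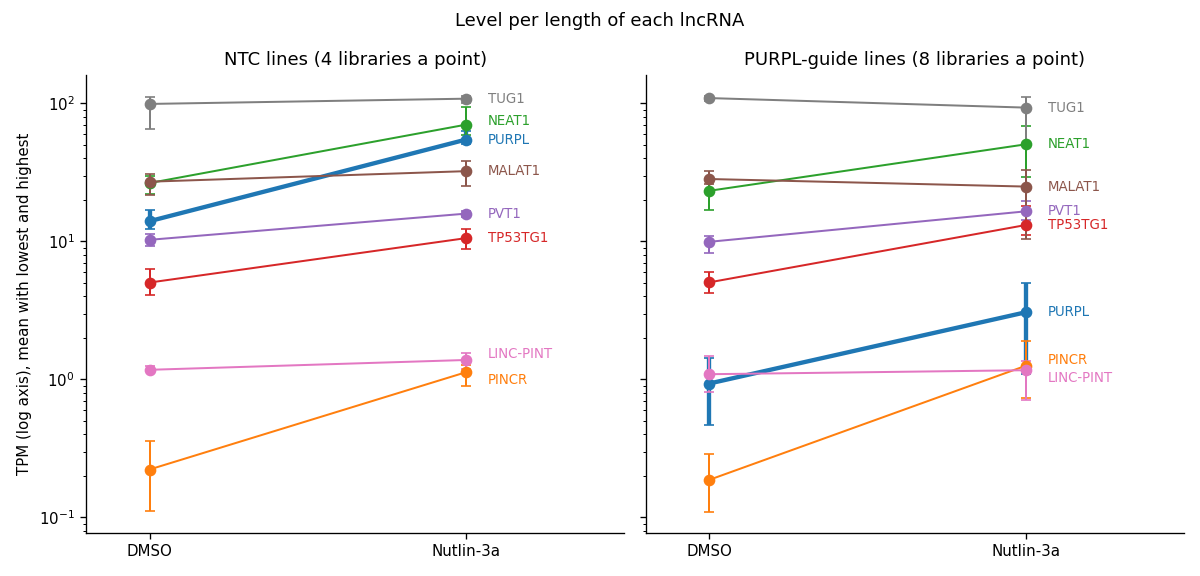
Mean TPM on a log axis with DMSO and Nutlin-3a, in NTC lines (left, 4 libraries a point) and PURPL-guide lines (right, 8 libraries a point), with bars from the lowest to the highest library. PURPL (thick line) goes from 14.0 to 54.6 TPM in NTC lines and from 0.933 to 3.06 TPM in guide lines, and crosses MALAT1 in the left panel only.

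The guide comparison asks whether lines with less PURPL held other levels of the related lncRNAs. With DMSO none of the other 7 was called (edgeR adjusted p of 0.825 to 0.981), with log2 differences from -0.28 (PINCR, SE 0.37) to 0.15 (TUG1, SE 0.10). PURPL was the 1 gene called of 16649 in this test. At an unadjusted p under 0.05 there were 0 of 7 in either direction, and DESeq2 called 0. The means of the 4 guide lines were all below both NTC lines for LINC-PINT (log2 difference -0.13, exact two-sided permutation p = 0.0667 over the 15 splits of lines, the smallest they allow), as for 4.51% of all genes. None of the 7 had all 4 above both, as 5.31% of all genes had. MALAT1 and TUG1 were called higher in guide lines when line NTC2 was left out (0.22 and 0.37, adjusted p = 0.011 and 0.000151, against adjusted p-values up to 1 over 23 alternatives), where line NTC1 holds the TUG1 library of 151 CPM against 244 to 257 CPM in the other NTC libraries with DMSO.

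With Nutlin-3a none of the other 7 was called either (edgeR adjusted p of 0.676 to 0.767), and DESeq2 called 0 of 7. This edgeR test called 0 of 16901 genes in either direction, PURPL included, so its 0 of 7 does not set these lncRNAs apart. NEAT1 was lower by a log2 difference of -0.47 (SE 0.11, unadjusted p = 0.00651, edgeR adjusted p = 0.676), and MALAT1 by -0.37 (SE 0.13, unadjusted p = 0.0298, adjusted p = 0.676). These were the 2 of 7 at an unadjusted p under 0.05. The mean of each of the 4 guide lines was below both NTC lines for NEAT1, MALAT1, LINC-PINT and TUG1, and above both for TP53TG1, as was so for 17.9% of all genes below and 17.2% above. The exact two-sided permutation p over the 15 splits of lines was 0.0667 for NEAT1, MALAT1, LINC-PINT and TP53TG1, which is the smallest that 4 against 2 lines allow, and 0.133 for TUG1.

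These values moved when the sg2 library that stood apart was left out. NEAT1 was then at -0.36 (SE 0.12, edgeR adjusted p = 0.828) and MALAT1 at -0.22 (SE 0.12, adjusted p = 0.828). TP53TG1 changed from 0.35 (SE 0.20) to 0.22 (SE 0.12), and its 4 guide lines were above both NTC lines with and without that library. For NEAT1, MALAT1, LINC-PINT and TUG1 the number of guide lines below both NTC lines fell from 4 to 3. The shares over all genes were then 8.84% below and 7.63% above. In that library TP53TG1 and PVT1 were above the range of the 7 other treated guide libraries, PINCR was within it, and PURPL, NEAT1, MALAT1, LINC-PINT and TUG1 were below it.

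The responses to Nutlin-3a were compared between the classes in the same way. None of the 8 passed the test (edgeR adjusted p of 0.533 to 0.667), and DESeq2 called 0. The edgeR test called 0 of 17264 genes in either direction, so its 0 of 8 does not set these lncRNAs apart. One of them, TUG1, was at an unadjusted p under 0.05 (-0.41, SE 0.16, unadjusted p = 0.0395, edgeR adjusted p = 0.533). Without the library that stood apart TUG1 was at -0.28 (SE 0.13, adjusted p = 0.613).

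**Figure D4:**
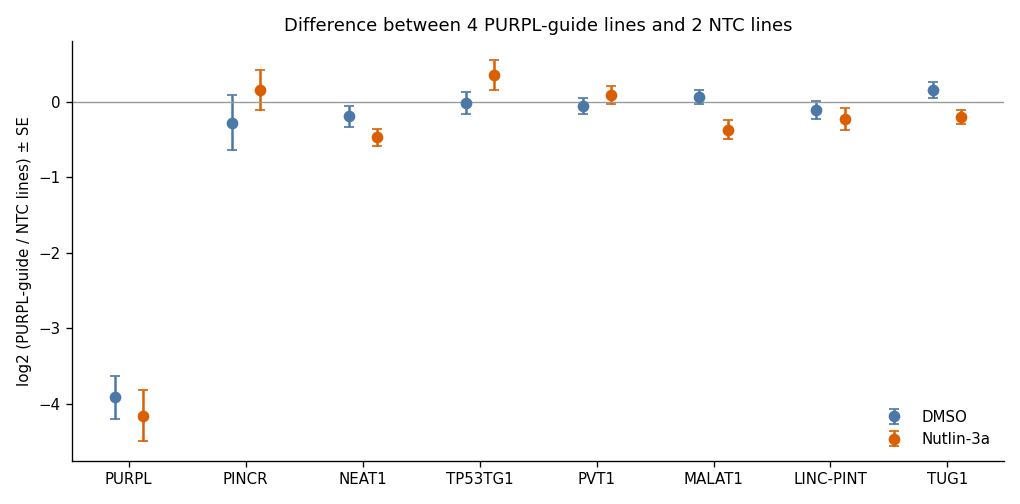
Log2 difference between 4 PURPL-guide lines and 2 NTC lines with its SE, in DMSO and in Nutlin-3a, for the 8 lncRNAs tested. PURPL lies near -4 in both treatments, and the other 7 lie between -0.47 and 0.35.

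Among other lncRNAs linked to p53, 18 of 20 listed names were in the table and 9 were tested, and 1 of the missing names, LINC01021, is an older name of PURPL. In NTC lines 2 of the 9 rose and 1 fell, beside 4.18% of all genes that rose and 4.03% that fell. MIR34AHG, the host gene of miR-34a, rose by 2.16 (SE 0.42) on the log2 scale, and NORAD, which sequesters Pumilio proteins, by 0.63 (SE 0.18). SNHG1, a snoRNA host gene, fell by 0.62 (SE 0.10). The median of the 9 was 0.40, beside -0.02 over all genes. In guide lines 4 rose and 2 fell, beside 17.7% of all genes that rose and 16.5% that fell. The median there was 0.062, beside 0.045 over all genes. The 4 include a gene with guide-line means of 0.0215 CPM with DMSO and 0.0786 CPM with Nutlin-3a. Its DMSO mean is below the 0.0326 to 0.0452 CPM that a count of 0 allows, so its call rests on few counts.

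Of 28 protein-coding p53 targets 26 rose and 0 fell in NTC lines, and 28 rose in guide lines, beside 4.18% and 17.7% of all genes that rose. Their median log2 change in NTC lines was 1.52, so PURPL at 1.98 was above the median of the list. CDKN1A, the cell cycle inhibitor p21, rose by 3.59 (SE 0.22), MDM2 by 3.22 (SE 0.22), the antiproliferative BTG2 by 3.53 (SE 0.10) and SESN1, a stress-induced sestrin, by 2.76 (SE 0.16). The death receptor TNFRSF10B rose by 1.17 (SE 0.06) and the DNA polymerase POLH by 1.48 (SE 0.08). Between guide and NTC lines with DMSO 0 of the 28 were called, in an edgeR test that called 1 of 16649 genes. The median log2 difference of the 28 was 0.024, beside -0.008 over all genes.

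Of 13 listed neighbours of these lncRNAs on their chromosomes, 9 were tested. In NTC lines 2 rose while 1 fell, beside 4.18% and 4.03% of all genes. CDH10, a cadherin gene of chromosome 5 as PURPL is, rose from 3.13 ± 0.554 to 28.6 ± 2.36 CPM, a log2 change of 3.20 (SE 0.17). In PURPL-guide lines its log2 change was 3.03 (SE 0.12). CDKN1A beside PANDAR rose as given above, and MYC beside PVT1 fell by 0.89 (SE 0.19) while PVT1 rose. Of 12 listed proteins known to bind one of the lncRNAs 11 were tested, MATR3 with 2 entries. In NTC lines, where 4.03% of all genes fell, 1 was called: EZH2, the methyltransferase of Polycomb repressive complex 2, fell by 0.71 (SE 0.10). In guide lines 6 of the 11 fell and 0 rose, where 16.5% of all genes fell.

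Over the 8 NTC libraries the genes whose log2 CPM was most like that of PURPL were FBXO22 (Pearson r = 0.998), ZNF195 (0.997), FAS, TP53INP1 and BCL10 (0.996 each). NEAT1 was at 0.96, PINCR at 0.956, PVT1 at 0.924 and TP53TG1 at 0.913. These libraries share a single treatment contrast, so any gene that Nutlin-3a shifts steadily has a high r, and the values are a description across 8 libraries. Over all 24 libraries, where the guides set most of the spread of PURPL, the highest r were 0.793 for NFKBIZ, 0.713 for DDR2, 0.711 for CNKSR3, 0.709 for GLRX and 0.697 for AC095055.1, and NEAT1 was at 0.575.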

How the data were processed

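The authors deposited a table of expected counts per gene for 24 libraries, and per the labels' protocols the libraries were made with the TruSeq Stranded mRNA kit. The submitters' processing notes name cutadapt, STAR, RSEM and DESeq2 with hg38, while versions, annotation and strand setting were not given there. Without known strand, MALAT1, PVT1, TP53TG1, LINC-PINT, TUG1, MEG3 and PANDAR, which overlap annotated genes on the opposite strand, are less certain than PURPL, PINCR and NEAT1. Expected counts split shared reads, which touched NEAT1, TUG1, LINC-PINT and PVT1 (values not whole within 1e-06). LINC-PINT is the entry ENSG00000231721.7.

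Counts were rounded after 45 second copies of pseudoautosomal genes (0.0222% of counts) were merged with the first. CPM used TMM-scaled totals. edgeR 4.0.16 (R 4.3.3; robust quasi-likelihood F test, TMM, filterByExpr at a minimum count of 10, Benjamini-Hochberg at 0.05 over all genes) fitted 12 group means for responses, and line sums (4 against 2) for guide comparisons, with a term per line for the response difference. A fold in the text is a ratio of mean CPM. Within-line responses used log2 CPM with a prior count of 0.5. TPM used GENCODE 29 merged exon lengths. Scripts were tested on simulated data. The p53 decamer search used the standard consensus.

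Alternatives were other size factors, filters of low counts, DESeq2 1.42.0, harvests as replicates, a block, other lengths and leaving out libraries or lines. The lncRNAs and gene lists were chosen with earlier results of these data known. Named genes are the lncRNAs, up to 4 called genes per list by p, MDM2, CDKN1A, the 5 most like PURPL in 8 and in 24 libraries, and the genes with a paired decamer, which were added after the data were seen. A gene of this rule and its list are not reported here.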

Additional observations from a re-analysis of the deposited data

Results flagged for a closer look

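Among 32 sets of libraries (8 lncRNAs in 4 groups of class and treatment), 5 had an end library far from the rest by Dixon's test, and chance gives about 1 in 20. In NTC lines, NEAT1 was at 495 CPM in NTC1 with Nutlin-3a at harvest 3, beside 332 CPM in the next library. TUG1 was at 151 CPM in NTC1 with DMSO at harvest 3, below the next library at 244 CPM. PVT1 was at 18.7 CPM in NTC2 with Nutlin-3a at harvest 3, below the next at 20.1 CPM, a gap that is wide only beside the close values of the others. In PURPL-guide lines with Nutlin-3a, the harvest 1 library of sg2 was highest for PVT1, at 27.7 CPM beside 21 CPM, and for TP53TG1, at 4.8 CPM beside 3.4 CPM.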

How the results depend on the processing

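The count of 5 lncRNAs called up was the same in both classes under each alternative run, including each of 24 left-out libraries, except the filter at 1 CPM, which left PINCR untested and called 4 of 7. The PURPL response ran from 1.85 to 2.02 in NTC lines and from 1.59 to 1.82 in guide lines on the log2 scale. With DMSO the PURPL difference between guide and NTC lines was -4.17 to -3.71 with 1 library or line left out, and with Nutlin-3a -4.34 to -3.97. With Nutlin-3a DESeq2 gave -4.15 and harvests taken as replicates gave -4.22, and both called it. The sg6 response was 1.36 to 1.57 with a library left out. PURPL minus PINCR was -0.79 and passed the test over 12 pairs of line and harvest (adjusted permutation p = 0.00627), which counts 2 harvests of a line as independent, and ran from -1.01 to -0.61 with a library or line left out. The same ranges were 0.51 to 0.70 for NEAT1, 0.35 to 0.65 for TP53TG1, 0.96 to 1.19 for PVT1, 1.55 to 1.73 for LINC-PINT, 1.77 to 1.93 for MALAT1 and 1.84 to 1.96 for TUG1, and with a line left out the test could not pass, because 5 lines allow no p under 0.0625. The level of PURPL in NTC lines with the longest transcript was 16.2 TPM (rank 5) with DMSO and 63.4 TPM (rank 2) with Nutlin-3a, and with the median transcript length 9.9 TPM (rank 5) and 39.1 TPM (rank 4).

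The main test did not pair the treatments by harvest number, and no label ties a number to a batch. The deviations of same-numbered libraries correlated weakly and positively, at 0.0425 to 0.253 over the 6 lines. Whether same-numbered libraries share a batch was not tested. With the replicate block the PURPL response was 1.97 in NTC lines (adjusted p = 0.000208) and 1.72 in guide lines, and 5 lncRNAs were called up in both.

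Signs turned for values that were not called, all with a library or line left out. The guide difference with DMSO ran from -0.67 to 0.24 for PINCR, from -0.072 to 0.22 for MALAT1, from -0.17 to 0.079 for PVT1, from -0.15 to 0.17 for TP53TG1 and from -0.030 to 0.37 for TUG1. The PINCR response difference ran from -0.21 to 0.855, the LINC-PINT response in guide lines from -0.003 to 0.205 and the TUG1 response in NTC lines from -0.041 to 0.24. At the 0.22 and 0.37 end, without line NTC2, MALAT1 and TUG1 were called. The cause of these changes was not tested. At 4 to 71 counts, depth limits PINCR, and it leaves MEG3 and PANDAR without a comparison.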
